A study of Mus musculus with 6 samples.

Results

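The genes described here encode the urokinase receptor and the enzymes and serpins around plasminogen activation: Plau, Plat, Plaur, Serpine2, Serpinb2 and Serpinf1. They were chosen by name and not by their values, and each was read from the probe set that names that gene alone, the one with the highest mean over all arrays. Of the 6 listed genes 5 had such a probe set, among 30716 genes in all, and Serpine2 was not analysed here. Log2 intensity was measured by Affymetrix array in cultured mouse podocytes, the epithelial cells whose foot processes cover the outer face of the glomerular capillary. The knockout group was labelled as lacking Nck1 and Nck2, adaptors that connect phosphorylated receptors such as nephrin to actin assembly, and the wildtype group as carrying both. Each group had 3 arrays, and all cells were conditionally immortalized and were used after 10 days of differentiation, grown on type I collagen. Whether the replicates of a group came from separate cultures, lines or clones is not given in the sources used here, so p-values measure only the spread between these samples, which may be technical. The transcript values did not by themselves show that either targeted gene was absent. Nck1 was 8.13, 8.17 and 8.06 in knockout, against 8.54, 8.74 and 8.62 in wildtype, a fall of 0.51 on the log2 scale (SE 0.07, limma adjusted p = 0.00391) that left it above 7.78, the highest mean of the array's 23 background probe sets. Nck2 was 7.25, 7.27 and 7.19 in knockout, against 7.37, 7.62 and 7.45 in wildtype, within the background range in both and not called (adjusted p = 0.094). Neither the deleted part of each gene nor where the probes lie relative to it is known here, so these probe sets cannot check the deletion.

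Plasminogen circulates as an inactive zymogen and is cut to plasmin by urokinase, the product of Plau, or by tissue plasminogen activator, the product of Plat. The receptor encoded by Plaur is a lipid-anchored protein of 3-finger LU domains that holds urokinase at the cell surface and also binds vitronectin and integrins. Serpins such as the products of Serpine2 and Serpinb2 trap the activators, whereas the product of Serpinf1, pigment epithelium-derived factor, has the serpin fold but does not inhibit proteases. In podocytes the urokinase receptor is known for activating a beta3 integrin and for a link to foot process effacement and proteinuria.

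Within this set the urokinase gene was higher in knockout, and its receptor gene, with lower values there, did not pass the test. Plau and Serpinf1 rose, by 0.44 and 0.41 on the log2 scale, and Plat, Plaur and Serpinb2 did not pass the test (limma, adjusted p under 0.05 after Benjamini-Hochberg adjustment over all genes). Over all genes 12% were called in either direction with 5.06% higher and 6.91% lower, so 2 of 5 is a small count to set against that share. The 3 values of each group did not overlap for 4 of the 5 genes, and 27.4% of all genes showed no overlap. For 3 of them the knockout values were the higher ones, as for 12.6% of all genes, and for Plaur the lower ones, as for 14.8%. The plot of values by array shows the groups apart for every gene but Serpinb2.

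**Figure D1:**
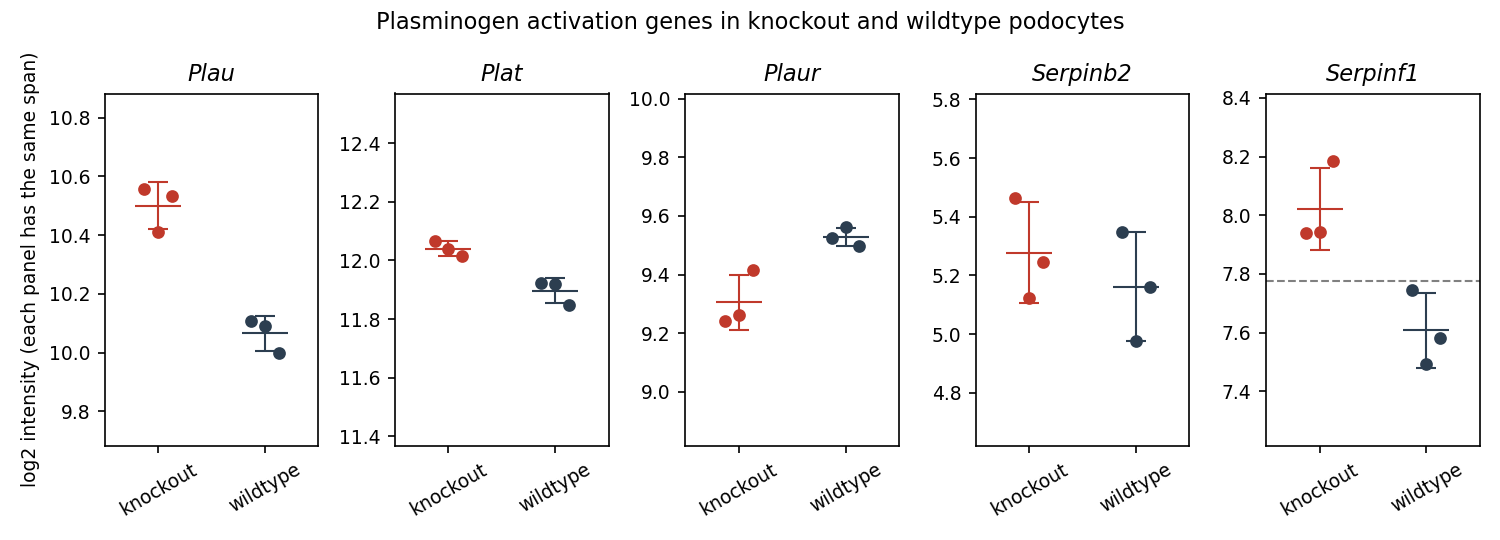
Log2 intensity of the 5 measured genes, with 1 point per array, horizontal bars at the mean and error bars of 1 SD (n = 3 knockout and 3 wildtype arrays). The dashed line at 7.78 is the highest mean of the background probe sets. Plau lies higher in all 3 knockout arrays, Plaur lies lower in all 3, and Serpinb2 overlaps and lies below the background level throughout.

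Of the activators, Plau (probe set TC1400000176.mm.1, chromosome 14) changed most. Its log2 intensity was 10.56, 10.41 and 10.53 in the 3 knockout arrays, against 10.11, 10.09 and 10.00 in the 3 wildtype arrays. All knockout values lay above all wildtype values. The means were 10.50 ± 0.08 in knockout and 10.06 ± 0.06 in wildtype (SD, n = 3 each). Plau thus rose by 0.44 on the log2 scale (95% confidence interval 0.29 to 0.58, SE 0.06, adjusted p = 0.00528 by limma), or 1.35-fold (1.22 to 1.49). Plau passed under all 14 alternatives, with changes of 0.38 to 0.48 and limma adjusted p from 0.00179 to 0.0324.

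Plat (probe set TC0800000286.mm.1, chromosome 8), the gene of the activator best known from clot lysis, moved less. Its values were 12.07, 12.04 and 12.01 in knockout, against 11.92, 11.92 and 11.85 in wildtype. The groups did not overlap, but the distance was small. The log2 difference was 0.14 (95% confidence interval 0.03 to 0.25) and did not pass (limma adjusted p = 0.107). It passed only with genes of the background range left out, which lowers the number of genes tested (adjusted p = 0.0494).

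The receptor gene Plaur (probe set TC0700000383.mm.1, chromosome 7) was measured well above the background range in both groups. Its values were 9.24, 9.26 and 9.41 in knockout, against 9.53, 9.56 and 9.50 in wildtype. All knockout values lay below all wildtype values, and knockout array 3 was the nearest to them. The means were 9.31 ± 0.09 in knockout and 9.53 ± 0.03 in wildtype (SD, n = 3 each), a log2 difference of -0.22 (SE 0.06, 95% confidence interval -0.37 to -0.08) that did not pass (limma adjusted p = 0.0665). The call depended on 1 array and on the set of genes tested. Without knockout replicate 3 the difference was -0.28 (limma adjusted p = 0.0291), with genes of the background range left out it was -0.22 (adjusted p = 0.028), and with chromosome medians taken off it was -0.25 (adjusted p = 0.044).

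The stretch before the RefSeq start of Plaur and that before the start of Serpinf1 (GRCm38.p6) are shown because AP-1 factors, whose genes are described below, are known to act on the urokinase receptor promoter, and because Serpinf1 was the risen gene with an entry in the promoter table. Capitals mark the AP-1 site TGANTCA and the Sp1 box GGGCGG, searched on both strands.
Plaur, chr7:24462233-24462482, plus strand: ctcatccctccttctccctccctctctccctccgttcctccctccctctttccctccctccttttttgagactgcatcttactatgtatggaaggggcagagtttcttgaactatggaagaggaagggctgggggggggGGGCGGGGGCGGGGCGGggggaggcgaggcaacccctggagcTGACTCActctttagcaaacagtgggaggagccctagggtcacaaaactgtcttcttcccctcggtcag
Serpinf1, chr11:75422624-75422873, minus strand, written 5′ to 3′ along the gene: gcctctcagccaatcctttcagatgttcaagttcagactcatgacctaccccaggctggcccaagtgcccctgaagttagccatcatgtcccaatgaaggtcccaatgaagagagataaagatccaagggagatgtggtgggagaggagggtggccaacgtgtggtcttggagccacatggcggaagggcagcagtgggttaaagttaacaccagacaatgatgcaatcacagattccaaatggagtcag
The Plaur window held 1 AP-1 match, 69 bases before the start, and 3 Sp1 matches that adjoin or overlap each other, and the Serpinf1 window held 0 of either. Serpinb2 has 2 overlapping windows in that table that share the same 1 AP-1 match, 94 and 181 bases before their starts, and hold 0 Sp1 matches. An AP-1 match was present in 6.75% and an Sp1 match in 32.7% of 32851 windows of the same length. These matches describe letters and do not show binding.

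The level of urokinase relative to its receptor was compared within each array. The log2 intensity of Plau minus that of Plaur was 1.32, 1.15 and 1.12 in the 3 knockout arrays, against 0.58, 0.53 and 0.50 in the 3 wildtype arrays. Its absolute size depends on how bright each probe set is, so only the difference between groups can be read. That difference was 0.66, with means of 1.19 ± 0.11 in knockout and 0.54 ± 0.04 in wildtype (SD, n = 3 each). All 3 knockout values were higher, as they had to be, since Plau lay higher and Plaur lower in every knockout array. An exact two-sided permutation test could therefore only give p = 0.1, the smallest that 3 arrays against 3 can give. It adds no support to the changes of the single genes. This ratio was chosen after the values of both genes were seen. Its difference between groups ranged from 0.59 to 0.69 over 14 alternatives, which restates the changes of both genes.

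**Figure D2:**
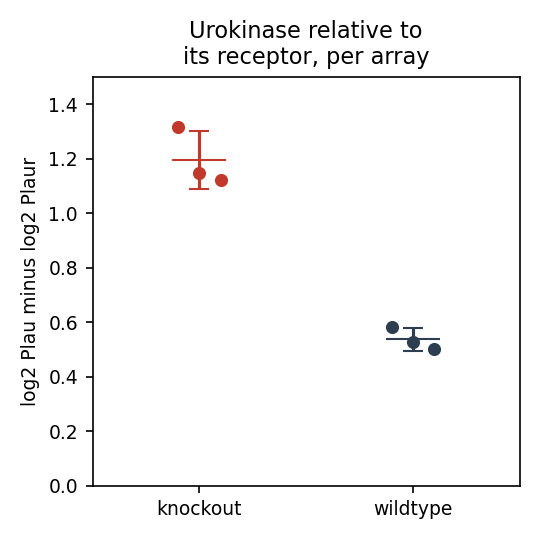
Log2 intensity of Plau minus log2 intensity of Plaur, with 1 point per array, horizontal bars at the mean and error bars of 1 SD (n = 3 per group). The knockout arrays lie at 1.12 to 1.32 and the wildtype arrays at 0.50 to 0.58.

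Of the serpins, Serpinf1 (probe set TC1100003222.mm.1, chromosome 11) was higher in knockout with a wider spread. Its values were 7.94, 7.94 and 8.18 in knockout, against 7.75, 7.49 and 7.58 in wildtype. The groups did not overlap, and the wildtype mean of 7.61 ± 0.13 lay within the range of the background probe sets, while the knockout mean was 8.02 ± 0.14 (SD, n = 3 each). A mean at or below 7.78, the highest mean of the 23 background probe sets of the array, is called within the background range here. The median of those 23 means was 4.48, and 62.9% of all genes had a mean over all arrays at or below 7.78. Serpinf1 rose by 0.41 on the log2 scale (95% confidence interval 0.18 to 0.64, SE 0.10, adjusted p = 0.0384 by limma). The call was lost without knockout replicate 1, 2 or 3 (limma adjusted p = 0.0842, 0.0847 and 0.0873) and without wildtype replicate 2 or 3 (0.117 and 0.145), and it was kept without wildtype replicate 1 (0.0437). Serpinf1 is a gene that fibroblasts express, and fibroblast markers moved beside it. All 3 measured ones (Dcn, Col1a1 and Lum) showed no overlap between groups, as did 27.4% of all genes. Dcn and Col1a1 rose, and Lum was not called (limma adjusted p = 0.0737), with both means within the background range. The mean log2 level of the 3 markers was 9.13 to 9.28 over the knockout arrays and 6.62 to 6.69 over the wildtype arrays. Their part in the result was not tested. In bulk RNA a changed number of cells of a type and a changed amount of RNA per cell cannot be told apart.

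Serpinb2 (probe set TC0100003866.mm.1, chromosome 1), which encodes the intracellular and secreted inhibitor of urokinase called plasminogen activator inhibitor 2, was not separated from background. Its values were 5.46, 5.12 and 5.25 in knockout, against 5.35, 4.98 and 5.16 in wildtype. The groups overlapped, and the log2 difference was 0.12 (95% confidence interval -0.18 to 0.41, limma adjusted p = 0.717). A probe set within the background range is not shown to be silent.

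The cells were checked on markers of podocytes and of other kidney cells. Of 6 measured podocyte markers, Synpo, Podxl, Cd2ap and Actn4 lay above the background range and Nphs1, the nephrin gene, and Wt1 within it in both groups; Actn4 rose by 0.61 and the other 5 did not pass the test. Urokinase, its receptor and Serpinb2 are also products of macrophages. Of 6 leukocyte and macrophage markers, Ptprc, Adgre1, Lyz2 and Itgam lay within the background range in both groups, Csf1r fell by 1.21 on the log2 scale and Cd68 rose by 0.57 (adjusted p = 0.047 by limma, lost without any 1 array other than knockout replicate 3, adjusted p from 0.0514 to 0.173), and the mean level of the list was 6.73 to 6.84 over knockout arrays and 6.83 to 6.92 over wildtype arrays. All 5 endothelial markers lay within the background range. Of 5 tubular markers, the water channel gene Aqp1 fell by 3.50 on the log2 scale, to 9.42 ± 0.09 in knockout against 12.92 ± 0.08 in wildtype (SD, n = 3 each), Cdh16 was 2.82-fold lower in knockout and Lrp2 1.29-fold lower, and Slc34a1 and Umod lay within the background range. The mean level of that list was 8.79 to 8.88 over knockout arrays and 9.84 to 9.94 over wildtype arrays. Of 5 mesangial and pericyte markers, the smooth muscle actin gene Acta2 rose by 2.83 and Pdgfrb by 2.36, Des, Itga8 and Cspg4 lay within the background range, and the mean level was 8.50 to 8.58 over knockout arrays and 7.38 to 7.51 over wildtype arrays. The part of these cell type markers in the results for the plasminogen activation genes was not tested. Over all genes 3676 were called, 1553 higher and 2123 lower, and without knockout replicate 1 or 2 or wildtype replicate 3 the counts were 2235, 2315 and 2081. After subtraction of each chromosome's median difference 2367 were higher and 1716 lower.

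Plasminogen itself and the circulating regulators gave no call. Of 12 listed genes 9 were measured, limma called 0 of them, 0 had an unadjusted p under 0.05, where 23.1% of all genes had one. In both groups all 9 lay in the background range. The zymogen gene Plg was 6.65 ± 0.01 in knockout and 6.72 ± 0.14 in wildtype, a log2 difference of -0.07 (95% confidence interval -0.25 to 0.12). Serpinf2, the gene of the main plasmin inhibitor, near Serpinf1 on chromosome 11, differed by -0.005 (-0.18 to 0.17). The 3 knockout values of Serpinf2 were identical, which understates its spread. Serpini1, the neuronal inhibitor of tissue plasminogen activator, differed by 0.04 (-0.08 to 0.16). The list median was -0.005, beside 0.01 over all genes.

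Genes that bind plasminogen at the surface or clear the activators moved in both directions. Among the 15 measured genes 2 rose, 4 fell and another 9 missed the threshold, and the list median was 0.01, as over all genes. That is 40% called against 12% of all genes. Of the 12 with a group mean above the background range 6 were called, against 24.9% of all such genes. Lrp1, the endocytic receptor that takes up urokinase bound to its inhibitors together with the urokinase receptor, was 10.49, 10.40 and 10.59 in knockout, against 8.87, 8.99 and 8.77 in wildtype. The groups lay far apart, and Lrp1 rose by 1.62 on the log2 scale (adjusted p = 8.09e-05 by limma, SE 0.08), or 3.06-fold. Ckap4, a membrane protein known to bind tissue plasminogen activator, rose by 0.64 (SE 0.10).

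S100a10 encodes the light chain that, paired with annexin A2, binds plasminogen and tissue plasminogen activator. Its values were 7.67, 7.69 and 7.60 in knockout, against 8.33, 8.34 and 8.36 in wildtype. The knockout values fell into the background range and the wildtype values did not. S100a10 fell by 0.69 (adjusted p = 0.000293 by limma, SE 0.05), while its partner Anxa2 differed by 0.16 (95% confidence interval -0.03 to 0.35) and did not pass (adjusted p = 0.311). The sorting receptor gene Sort1 fell by 0.62 (SE 0.06) and the endocytic receptor gene Lrp2 fell by 0.36 (SE 0.06). Lrp2 is also 1 of the 5 tubular markers, and the other 2 expressed ones, Aqp1 and Cdh16, were 11.3-fold and 2.82-fold lower in knockout. Their part in its fall was not tested. Plgrkt, which encodes a plasminogen receptor with a C-terminal lysine, fell by 0.29 (adjusted p = 0.0411 by limma, SE 0.07), and this call was lost without any 1 of the 6 arrays (limma adjusted p from 0.0536 to 0.144) or with arrays centred on their medians (0.107).

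The ligand and membrane partners of the urokinase receptor were called only upward. Among the 15 measured genes 5 rose, 0 fell and another 10 missed the threshold, with a list median of 0.04 beside 0.01 over all genes. That is 33.3% called against 12% of all genes, of which 5.06% were higher and 6.91% lower. Of the 10 above the background range 4 were called, against 24.9% of all such genes. Itgb3, the beta3 integrin chain that the receptor is known to activate in podocytes, was 7.41, 7.40 and 7.36 in knockout, against 6.95, 6.69 and 6.91 in wildtype. Every value was within the background range, and the groups did not overlap. Itgb3 rose by 0.54 (SE 0.08, limma adjusted p = 0.00582), and its partner chain Itgav differed by 0.03 (95% confidence interval -0.09 to 0.14). Itga5, the fibronectin receptor chain, rose by 0.80 (SE 0.08), and the growth factor receptor gene Pdgfrb rose by 2.36 (SE 0.08) over a wildtype mean within the background range. Pdgfrb is also 1 of the 5 mesangial and pericyte markers, of which Acta2 rose beside it by 2.83, and the fibroblast markers Dcn and Col1a1 rose by 4.33 and 3.03. Their part in its rise was not tested.

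The other risen partners were smaller changes, and without knockout replicate 1 or 2 or wildtype replicate 3, or with arrays centred on their medians, 3 of the 15 were called. Il6st, the shared cytokine receptor chain, rose by 0.28 (adjusted p = 0.0144 by limma), and this call was lost without knockout replicate 1 or 2 or wildtype replicate 3 (limma adjusted p from 0.0617 to 0.0761) and under both other scalings (0.0519 and 0.0671). Cav1, encoding the caveolar coat protein, rose by 0.23 (adjusted p = 0.0194 by limma), and this call was lost without wildtype replicate 3 or any of the 3 knockout arrays (limma adjusted p from 0.0596 to 0.0817) and with arrays centred on their medians (0.0923). Vtn, the gene of the matrix ligand vitronectin, differed by 0.04 (95% confidence interval -0.27 to 0.35) within the background range.

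**Figure D3:**
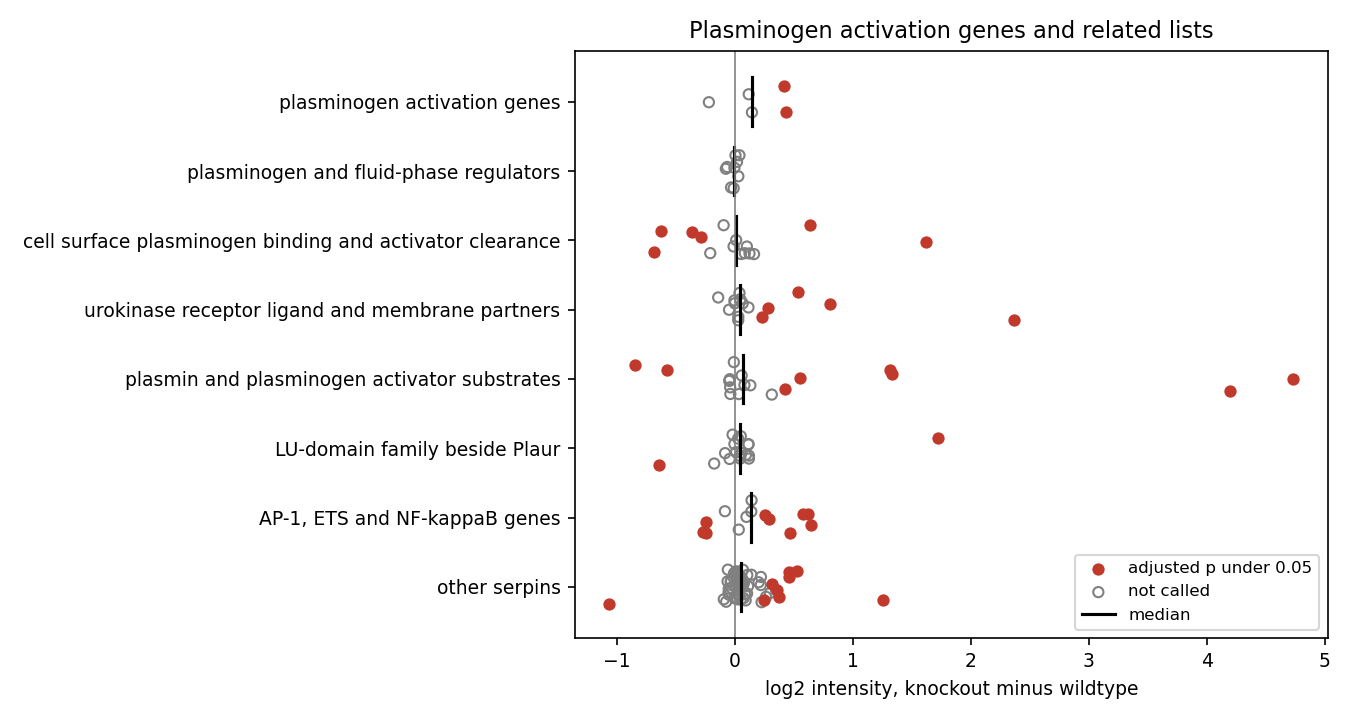
Log2 intensity in knockout minus wildtype for the 5 plasminogen activation genes and 7 related lists, with 1 point per gene. Filled points had a limma adjusted p under 0.05, open points did not, and black bars are list medians, which run from -0.005 to 0.14. The widest values are those of plasmin and activator substrates, up to 4.73 for Mmp10.

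Genes of known substrates of plasmin or of the activators held the widest changes of the 7 lists. Among the 18 measured genes 6 rose, 2 fell and another 10 missed the threshold, with a median of 0.07, so 44.4% were called against 12% of all genes. Of the 9 above the background range 6 were called, against 24.9% of all such genes, and another 9 lay within that range in both groups. Pdgfd, a growth factor whose latent form urokinase can cut, was 9.93, 10.01 and 9.93 in knockout, against 5.91, 5.93 and 5.44 in wildtype. Its wildtype values were within the background range, and it rose by 4.20 on the log2 scale (adjusted p = 1.77e-05 by limma, SE 0.13). Pdgfc, whose latent form tissue plasminogen activator can cut, went the other way and fell by 0.85 (SE 0.05). The promatrix metalloproteinase genes Mmp10 and Mmp13 rose by 4.73 (SE 0.07) and 1.31 (SE 0.07), with the wildtype mean of Mmp10 and both means of Mmp13 within the background range. Mmp3, a further risen gene of this list, also had both means within that range. Pdgfd, Mmp10, Mmp13 and Mmp3 all lie on chromosome 9. They may therefore not be separate changes, and whether their position bears on the count of this list was not tested. Ltbp1, which tethers latent TGF-beta to matrix, rose by 1.33 (SE 0.06), and the fibronectin gene Fn1 fell by 0.57 (SE 0.05).

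Of 18 measured relatives of Plaur with LU domains, 1 rose and 1 fell, or 11.1% against 12% of all genes. Of the 7 above the background range 2 were called, or 28.6% against 24.9%. Ly6c1, a surface antigen gene of a family with close copies, rose by 1.72 (SE 0.15), and Psca, the prostate stem cell antigen gene, fell by 0.64 (SE 0.05). Ly6c1 has near-identical paralogs whose transcripts may share probes, so its value is uncertain.

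Among 58 other measured serpin genes 8 rose, 1 fell and another 49 missed the threshold. That is 15.5% called against 12% of all genes, and 13.8% called higher against 5.06%. Of these genes 53 lay within the background range in both groups, and of the 5 above it 4 were called, against 24.9% of all such genes. Without knockout replicate 2 or wildtype replicate 3, 4 were called. This list shares 4 genes with that of the circulating regulators. Serpinb9b rose by 1.25 (SE 0.06) and Serpinb6b by 0.52 (SE 0.04). The 3 knockout values of Serpinb6b were identical, which understates its spread, and both genes belong to families of close copies that may share probes. Serpinb8, an intracellular serpin gene near Serpinb2 on chromosome 1, rose by 0.46 (SE 0.04), and Serpina10, which encodes an inhibitor of activated coagulation factor X, fell by 1.07 (SE 0.10), each with both means within the background range. Serpina3n rose by 0.45 (limma adjusted p = 0.0407) and Serpinb1a by 0.37 (adjusted p = 0.013), also within it. The call of Serpina3n was lost without wildtype replicate 1 or 3 or any of the 3 knockout arrays (limma adjusted p from 0.058 to 0.133), and that of Serpinb1a without knockout replicate 2 or wildtype replicate 3 (0.0621 and 0.0594). Serpinb9b, Serpinb6b and Serpinb1a lie on chromosome 13, as do Serpinb9 and Serpinb9e, further risen genes of this list. These genes may therefore not be separate changes, and whether their position bears on the count of this list was not tested.

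AP-1, ETS and NF-kappaB factors are known to act on the urokinase and urokinase receptor promoters. Their listed genes, counted together with the zinc finger gene Egr1, were called often. Rela, the only measured NF-kappaB gene of the list, was not called (limma adjusted p = 0.229). Among the 14 measured genes 6 rose, 3 fell and another 5 missed the threshold, with a median of 0.14. That is 64.3% called against 12% of all genes. Without knockout replicate 1 or wildtype replicate 3, 4 were called, and without knockout replicate 2 or 3, 5 were. Of the 11 above the background range 8 were called, against 24.9% of all such genes. The AP-1 gene Fosl1 was 8.19, 8.44 and 8.34 in knockout, against 7.73, 7.76 and 7.63 in wildtype, with the wildtype values within the background range. Fosl1 rose by 0.62 (SE 0.08, limma adjusted p = 0.00342), Fos by 0.64 (SE 0.05), Ets2 by 0.57 (SE 0.05) and Elk3 by 0.46 (SE 0.05). Fosl2 rose by 0.29 (adjusted p = 0.0394 by limma), and this call was lost without any 1 array other than wildtype replicate 2 (limma adjusted p from 0.0794 to 0.147) and with arrays centred on their medians (0.102). The zinc finger gene Egr1 fell by 0.27 (adjusted p = 0.0113 by limma), and this call was lost without knockout replicate 1 or 2 or wildtype replicate 3 (adjusted p from 0.0508 to 0.0575) and with chromosome medians taken off (-0.14, adjusted p = 0.0949). The AP-1 gene Jund and the ETS gene Elk1 were also called lower, at -0.25 and -0.24 (limma adjusted p = 0.0287 and 0.0479).

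The surroundings of the genes along their chromosomes were compared over the 5 measured genes on either side. Around Plau all 10 neighbours had a log2 difference above 0, from 0.03 to 1.00 with a median of 0.17, where 55.1% of all genes had one above 0. Of these, limma called Vcl, the gene of the adhesion protein vinculin next to Plau, and Adk, the adenosine kinase gene, which rose by 0.50 and 1.00. Those are 2 of 10, against 12% of all genes and 24.9% of genes with a group mean above the background range. An unadjusted limma p under 0.05 was reached by 6 of the 10, where 23.1% of all genes had one. In both groups 2 of the 10 lay within that range. The median over 384 brighter protein-coding genes of chromosome 14 was 0.04, and with such chromosome medians taken off Plau rose by 0.39 (limma adjusted p = 0.00865). Whether the neighbourhood of Plau bears on its level was not tested.

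Around Plaur and around Plat limma called 0 of 10 neighbours, and 0 had an unadjusted p under 0.05. Of all genes 12% were called and 23.1% had such a p. The differences ran from -0.09 to 0.09 around Plaur and from -0.03 to 0.15 around Plat. In both groups 6 of the 10 around Plaur and 4 of the 10 around Plat lay within the background range. Around Serpinb2 1 of 10 rose, Serpinb8, where 5.06% of all genes were called higher, and 9 of 10 lay within the background range. Around Serpinf1 1 of 10 fell, where 6.91% of all genes were called lower. It was Smyd4 (-0.33, limma adjusted p = 0.00851, and 0.051 without wildtype replicate 3), a gene of a SET and MYND domain protein. Serpinf2, the second measured gene on the other side, was at -0.005. Around Serpinf1 4 of 10 lay within the background range in both groups. An unadjusted limma p under 0.05 was reached by 2 of 10 around Serpinb2 and by 2 of 10 around Serpinf1.

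**Figure D4:**
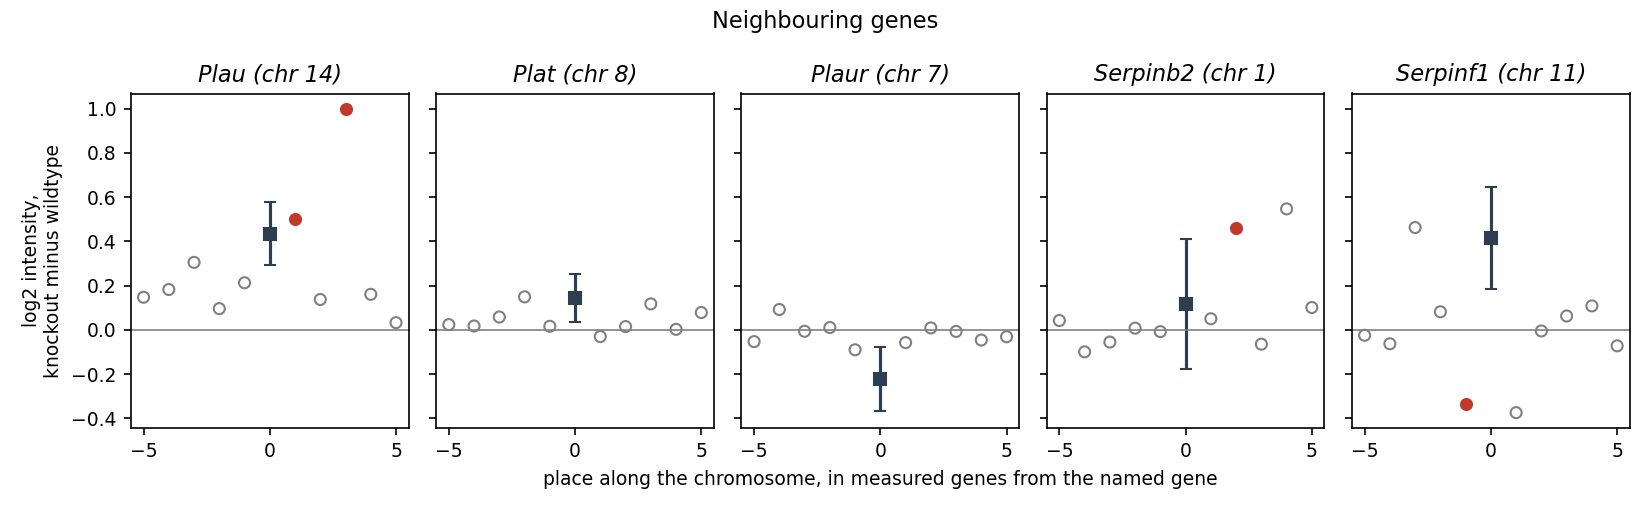
Log2 intensity in knockout minus wildtype for the 5 measured genes on either side of each named gene, in order along the chromosome. Squares are the named genes with 95% confidence intervals, filled circles had a limma adjusted p under 0.05 and open circles did not. All neighbours of Plau lie above 0, and those of Plaur lie between -0.09 and 0.09.

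The genes most like each one over the 6 arrays were named by the smallest Euclidean distance between log2 values centred on each gene's mean, among 11702 genes (11703 for Serpinb2) that carry an established symbol and have a mean no lower than the median gene. Nearest to Plau were the glucose transporter gene Slc2a1 (distance 0.04), the lysosomal membrane gene Laptm4b (0.09) and the phosphatase gene Dusp1 (0.09). Nearest to Plaur were Cxxc1 (0.03), Timm44 (0.03) and Crat (0.04), and nearest to Plat were Baiap2 (0.04), Rrp1 (0.05) and Clip2 (0.05). Serpinf1 was nearest to Pde4a, Gpr75 and Ttc39aos1, each at a distance of 0.13. Serpinb2 was nearest to Mir7033 (0.02), Mir6415 (0.06) and Mir6417 (0.10), its own values lying within the background range.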

How the data were processed

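Each array's deposited column holds log2 intensities per probe set, which the authors made by RMA with affy 1.44.0 in R, per the submitters' processing notes. RMA corrects background, quantile-normalizes arrays and summarises probes, so small differences depend on that normalization. Neither probe definition file nor genome build is named there. Array medians over 72688 probe sets ran from 6.73 to 6.81, and no detection calls were used; the number of arrays limits the precision. Per the platform annotation, 31272 probe sets named 1 gene after symbols were updated through a GRCm38.p6 table, which was used for names and gene order, and 1478 named several and were not used. The highest-mean probe set was kept for 441 genes with several. The groups were fitted with limma 3.58.1 under R 4.3.3 (lmFit, eBayes, two-sided, no covariate, no filter), with Benjamini-Hochberg adjustment over 30716 genes at 0.05. The fit was tested on simulated data. Errors are SDs over arrays and limma standard errors. Promoter windows came from RefSeq. The members, lists and naming rules were chosen with earlier results of these data known. The text names the members, up to 6 of the largest called changes of each list, 9 fixed genes, the nearest 3 genes by distance and neighbours. Markers, Mmp3, Rela, Jund, Elk1, Serpinb9, Serpinb9e and the neighbours singled out were chosen after their values were seen. Alternatives were the replicate block, each array left out, 2 scalings, a background filter, identical values left out, an intensity trend, averaged probe sets, chromosome medians and a threshold of 0.01. Plots used matplotlib 3.10.9 (Python 3.11.15).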

Additional observations from a re-analysis of the deposited data

How the results depend on the processing

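Of the 5 measured genes, Plau kept its direction and its call under all 14 alternatives, and Plat, Plaur, Serpinb2 and Serpinf1 kept their directions under each that gave a value. Serpinb2 and the other genes with both means in the background range have no value under the background filter. With all arrays in the fit at 0.05, the calls that changed were Plat with the filter (0.14), Plaur with the filter (-0.22) and with chromosome medians off (-0.25). At 0.01 Serpinf1 was not called. With arrays left out, Plaur ran from -0.28 to -0.19, Serpinf1 from 0.33 to 0.48, Plat from 0.12 to 0.16 and Plau from 0.40 to 0.48; the cause was not tested. The count of changed genes was 3676, 1950 at a threshold of 0.01, and 2081 to 3397 with arrays left out, where fewer samples are fitted. At 0.01 the counts were 3 of the receptor's partners, 4 AP-1, ETS and NF-kappaB genes and 4 other serpins; centring arrays on their medians gave 3 partners, and the filter 4 of the 5 other serpins it left. With arrays left out these ran from 3 to 5 partners, from 4 to 7 factors and from 4 to 9 serpins. Some differences near 0 changed sign. With arrays left out, Plg ran from -0.11 to 0.016, Serpinf2 from -0.070 to 0.063 and Vtn from -0.095 to 0.17. With quantile normalization, Serpinf2 was at 0.0015, Serpini1 at -0.0066 and Itgav at -0.015, and with chromosome medians off Serpinf2 was at 0.10. Whether the replicate numbers pair the samples is not known. Same-numbered arrays correlated in their deviations from the group mean at 0.35, 0.28 and 0.04, and differently numbered ones at -0.34 to 0.05. With the replicate block 3772 genes were called, Plau was at adjusted p = 0.0125, Plaur at 0.109, Plat at 0.191 and Serpinf1 at 0.0394 by limma, no call of these 5 genes changed, and Cav1 (0.061), Plgrkt (0.0544) and Fosl2 (0.0659) were not called. Signal over background limits Serpinb2, Serpinf1 and Itgb3.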
